A study of Mus musculus with 24 samples.

Results

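A set of 10 genes that bind, activate and oxidise fatty acids was followed across mouse astrocyte preparations, namely the binding proteins Fabp3, Fabp5 and Fabp7, the acyl-CoA synthetases Acsl3, Acsl6 and Acsbg1, the carnitine palmitoyltransferases Cpt1a and Cpt2, and the β-oxidation enzymes Acadl and Hadha. They were taken by symbol from a count table of 49671 genes, and all 10 passed the filter on low counts that left 19691 genes for testing. RNA-seq libraries were made from 6 groups of cells with 4 libraries each. The study compared astrocytes made from stem cells with astrocytes taken from neonatal or adult brain, and cells in culture with cells frozen straight after isolation.

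Neural stem cells (NSC) came from the embryonic stem cell line GSC-5003, derived from C57BL/6N mice, and were kept at passages 50 to 60 in medium with FGF and EGF at 20 ng/ml each. The group called AGES, astrocytes made from these stem cells, consisted of NSC after 3 to 5 days of BMP4 at 20 ng/ml, so that both groups stem from 1 cell line and their replicates are independent cultures of different passages. The study lists no FGF or EGF in the AGES medium, which was used on a poly-ornithine and laminin coating in place of gelatin. Neonatal astrocytes (neoAC) were isolated from C57BL/6J mice aged 4 to 8 days, and adult astrocytes (AdAC) from C57BL/6J mice of at least 100 days. Both were captured with magnetic beads against ACSA-2, an epitope of the sodium pump subunit Atp1b2. Each isolation pooled 2 mice. Adult tissue was dissociated with another kit than neonatal tissue, and debris and red blood cells were removed in additional steps. Olfactory bulb and cerebellum were removed for direct adult isolation, and cerebral tissue was taken from neonatal mice. Age and these steps differ together, so their parts cannot be told apart. The libraries called direct were frozen after isolation, and those called CellC were grown for 7 to 10 days. No gene was deleted or overexpressed in any group. The cultured brain cells were grown in AstroMACS medium on poly-lysine and laminin, whereas NSC and AGES were grown in N2B27 medium. Strain, origin and culture conditions therefore differ together between the stem cell groups and the brain groups, so their parts cannot be told apart.

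Fatty acids do not dissolve well in the cytosol and are carried there by fatty acid binding proteins. Acyl-CoA synthetases trap them by coupling to coenzyme A, and the resulting acyl-CoA is either built into lipids or handed to the carnitine shuttle, which brings it into mitochondria for β-oxidation. In the brain most fatty acid oxidation takes place in astrocytes, and Fabp7, also called brain lipid binding protein, is a classical product of radial glia, the embryonic precursors of astrocytes.

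The libraries held 27904126 to 37997368 counts. Levels are in CPM, the counts of a gene brought to a common library total with the TMM method, given as mean ± SD of 4 libraries, and differences are log2 fold changes ± standard error from a two-sided edgeR quasi-likelihood test with Benjamini-Hochberg adjustment over all tested genes, called at an adjusted p under 0.05. Between 63.8% and 78% of all tested genes were called in each of the 7 comparisons of the study, so that a call was common in this table. None of the 10 astrocyte markers stayed at or below 3 counts in all libraries of a group, and their sum was lowest in AdAC CellC (1002 to 1521 CPM) and NSC (2018 to 2545 CPM) and highest in AGES (55369 to 60310.5 CPM). Single markers did not all follow this sum. Against neoAC direct, 3 of the 10 were called higher and 7 lower in AGES, and against AdAC direct 2 and 6. The counts were 3 and 4 against neoAC CellC, 8 and 2 against AdAC CellC, and 7 and 0 against NSC. The 7 oligodendrocyte markers summed to 26627 to 29513 CPM in AdAC direct and 4351 to 11123 CPM in AdAC CellC, but to at most 398 CPM in the neonatal groups and 43.3 CPM in NSC and AGES. In such bulk libraries a smaller share of one cell type and less RNA per cell of that type cannot be told apart.

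Fabp7 (ENSMUSG00000019874, chr10:57784881-57788450, + strand) had the widest range of the 9 genes that were detected in all 6 groups. The 4 libraries of neoAC direct held 6007, 5084, 6682 and 5813 CPM. Those of AdAC direct held 79.7, 70.9, 71.9 and 103 CPM. These groups lay 72.5-fold apart, with no overlap. The remaining groups fell in between, with 700.4, 754, 1039 and 729 CPM in NSC and 966, 574, 627 and 709.7 CPM in neoAC CellC. AdAC CellC had 262, 381, 359 and 533 CPM and AGES 396, 353, 259.6 and 465 CPM. In this order NSC and neoAC CellC did not differ beyond their spread (log2 fold change 0.16, edgeR adjusted p = 0.452), nor did AdAC CellC and AGES (AGES minus AdAC CellC -0.06, 95% interval -0.47 to 0.36, edgeR adjusted p = 0.800). NSC replicate 3, at 1039 CPM, lay apart from the other 3 libraries of its group.

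Because of this wide range, the RefSeq promoter of Fabp7 on GRCm38.p6 is shown, 250 bases before and 50 bases after the annotated start, together with those of Acsl3, whose level was highest in AdAC direct, and of Cpt1a, the entry step into oxidation. Capitals mark CCAAT boxes, the nuclear receptor half-site AGGTCA and, in Fabp7, TGGGAA, the core bound by the Notch effector RBPJ, on either strand.
Fabp7 (chr10:57784673-57784972, + strand): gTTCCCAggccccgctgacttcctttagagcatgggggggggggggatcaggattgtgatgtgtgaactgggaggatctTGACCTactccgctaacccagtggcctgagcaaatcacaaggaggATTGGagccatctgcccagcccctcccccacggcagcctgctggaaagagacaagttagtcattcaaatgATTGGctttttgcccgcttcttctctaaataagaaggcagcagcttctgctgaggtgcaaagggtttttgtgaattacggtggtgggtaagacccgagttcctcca
Acsl3 (chr1:78657575-78657874, + strand): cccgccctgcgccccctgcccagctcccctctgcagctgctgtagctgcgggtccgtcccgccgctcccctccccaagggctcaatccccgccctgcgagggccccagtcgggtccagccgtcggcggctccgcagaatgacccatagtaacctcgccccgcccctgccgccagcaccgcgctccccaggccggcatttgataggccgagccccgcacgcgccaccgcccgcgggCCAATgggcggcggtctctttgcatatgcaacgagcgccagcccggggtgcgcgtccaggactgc
Cpt1a (chr19:3323051-3323350, + strand): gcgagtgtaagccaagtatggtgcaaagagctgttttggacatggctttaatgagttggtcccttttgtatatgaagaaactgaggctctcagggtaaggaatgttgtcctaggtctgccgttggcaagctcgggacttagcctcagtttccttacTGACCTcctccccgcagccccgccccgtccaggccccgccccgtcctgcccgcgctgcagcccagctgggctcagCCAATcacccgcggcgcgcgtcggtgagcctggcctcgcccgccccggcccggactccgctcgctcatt

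The Fabp7 window held 1 AGGTCA, 2 CCAAT and 1 TGGGAA, all on the opposite strand. That of Cpt1a held 1 AGGTCA and 1 CCAAT, and that of Acsl3 a CCAAT alone among these letters. A promoter was on hand for 9 of the 10 genes, with 3 start sites for Acsl6. Among these 11 windows, 6 held CCAAT, 3 held AGGTCA and 3 held TGGGAA, against 37.4%, 16.3% and 25.6% of the 32851 mouse promoters of the same length. The sterol regulatory element TCACNCCAC and the direct repeat recognised by PPAR and RXR, which is the half-site repeated after 1 base and so overlaps it, occurred in none of the 11 windows and in 1.24% and 0.0396% of all promoters. A match describes letters only and is not a measured binding site.

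**Figure D1:**
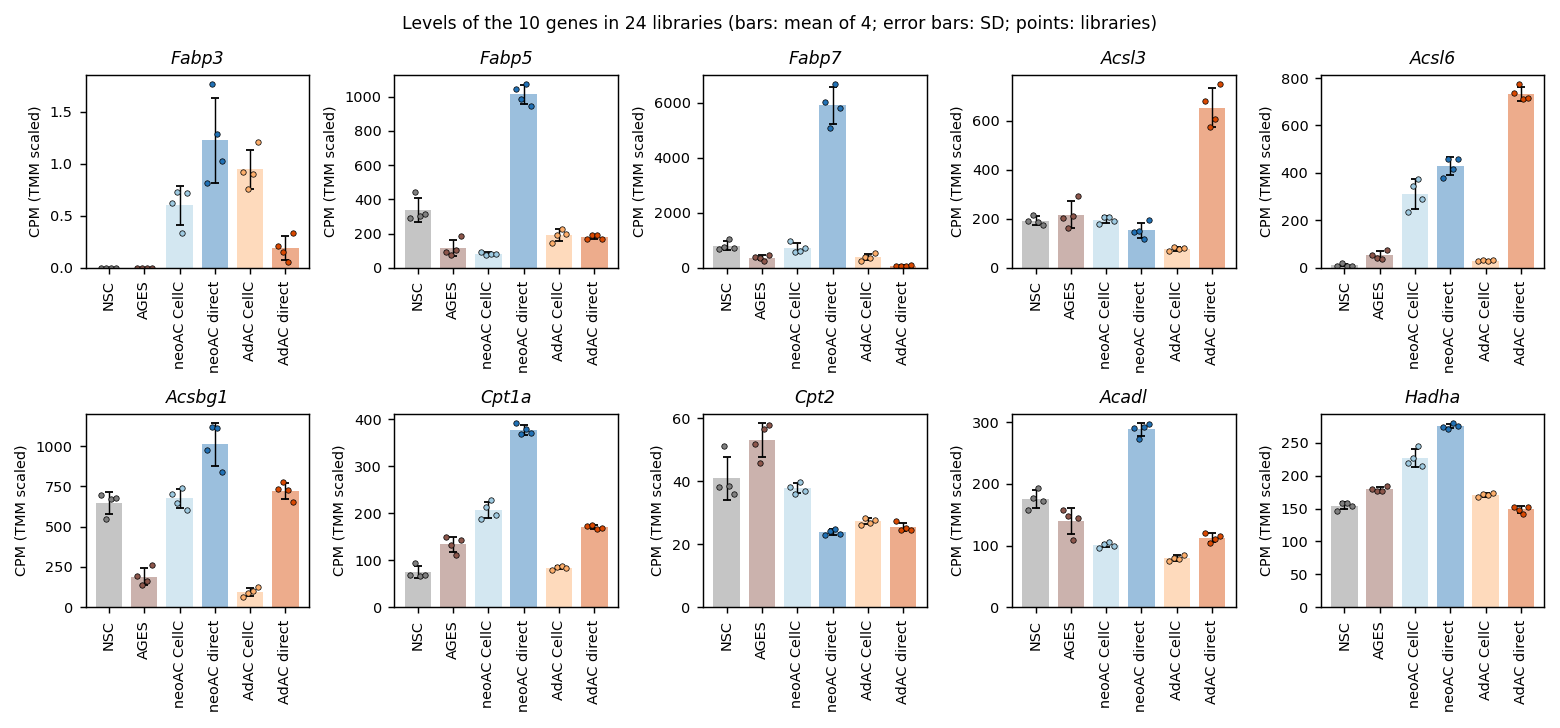
Level of each of the 10 genes in CPM (TMM scaled, linear axis from 0, one panel per gene) in the 6 groups. Bars are means of 4 libraries, error bars are SD and points are libraries. Fabp7 stood at 5896 CPM in neoAC direct and at 81.3 CPM in AdAC direct, whereas Hadha kept between 149 and 275 CPM.

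Fabp5 (ENSMUSG00000027533, chr3:10012548-10016607, + strand), the epidermal type binding protein that also carries endocannabinoids, was likewise highest in neoAC direct, at 1045, 984, 1076 and 947 CPM. NSC followed with 294, 445, 302 and 312 CPM. Among the other groups the highest single library had 229.7 CPM. AdAC CellC had 143, 193, 229.7 and 199.9 CPM and AdAC direct 168, 189, 193 and 171 CPM. These overlapped and did not differ beyond their spread (log2 fold change 0.09 ± 0.19, 95% interval -0.31 to 0.48, edgeR adjusted p = 0.683). AGES had 93.6, 75.9, 106 and 185 CPM, with replicate 4 far above the other 3, and neoAC CellC had the lowest mean, from 92.9, 73.6, 81.6 and 81.2 CPM. 

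Counts were also assigned to a near-identical copy of Fabp5, mostly in the stem cell groups. Gm6166 (chr9:57483963-57484371, + strand), a processed pseudogene that matches the Fabp5 transcript over up to 409 bases at 95% identity or more, took 605 to 1600 counts in the AGES libraries and 2578 to 4226 in the NSC libraries. In the 16 brain libraries it took 13 to 287 counts. As a share of Fabp5 and its 2 near-identical copies together, this came to 20% to 24.3% in every NSC and AGES library and to 0.327% to 1.36% in every brain library, so the groups did not overlap. The share ranged from 22.1% to 24.3% in NSC and from 20% to 22.3% in AGES, while the level of Fabp5 itself was 2.94-fold lower in AGES. With the copies added to Fabp5, a step chosen after seeing the data, the mean level was 444 CPM in NSC and 148 CPM in AGES, and it moved little in the other groups, for example from 82.3 to 83.8 CPM in neoAC CellC. Stem cell line, strain and culture conditions change together here, and their part in the share was not tested. Counts of the copy may come from either locus, which was not tested.

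**Figure D2:**
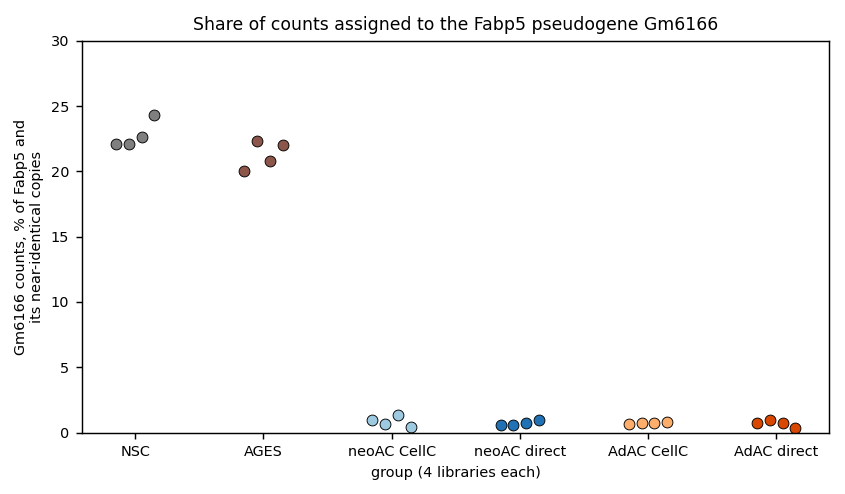
Counts assigned to the processed pseudogene Gm6166 as a percentage of the counts of Fabp5 and its 2 near-identical copies (vertical axis, from 0), one point per library, in the 6 groups. The 8 NSC and AGES libraries sit between 20% and 24.3%, the 16 brain libraries at or below 1.36%.

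Fabp3 (ENSMUSG00000028773, chr4:130308595-130315463, + strand), the heart type binding protein, had 0 counts in all NSC and AGES libraries, where 3 counts per library would correspond to about 0.0961 and 0.0997 CPM. It reached 12 to 28 counts in neoAC CellC, 25 to 64 in neoAC direct, 26 to 39 in AdAC CellC and 2 to 12 in AdAC direct. The means were 0.602, 1.23, 0.948 and 0.191 CPM in that order. Measured against the floor of 3 counts per library, the level in AdAC CellC was at least 9.51-fold higher than in AGES, and that in neoAC CellC at least 6.04-fold higher. Its near-identical copy Fabp3-ps1 had 0 counts in NSC and at most 1 in an AGES library, and at most 2 in any brain library. Fabp3 overlaps exons of Zcchc17 and Gm10570 on the opposite strand over 161 bases, and the strand setting of the counting is not given in the sources used here. The other binding proteins of the family, Fabp1, Fabp2, Fabp4, Fabp6, Fabp9, Fabp12 and the myelin protein Pmp2, did not pass the filter.

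Among the synthetases, Acsl3 (ENSMUSG00000032883, chr1:78657825-78707743, + strand), which sits at the endoplasmic reticulum and at nascent lipid droplets, had another pattern than the binding proteins. AdAC direct had 681, 573, 605 and 750.4 CPM, and the highest library elsewhere, AGES replicate 4, had 293 CPM. AdAC CellC had the lowest values, 67.9, 85.4, 77.5 and 80.5 CPM. AGES (202, 163, 210.4 and 293 CPM), neoAC CellC (178, 208, 208 and 190.5 CPM), NSC (191, 216, 187 and 174 CPM) and neoAC direct (145, 151, 118 and 196 CPM) had means between 152 and 217 CPM. The difference between AGES and neoAC CellC (log2 fold change 0.15 ± 0.14, 95% interval -0.15 to 0.45, edgeR adjusted p = 0.36) and that between neoAC CellC and NSC (0.03, edgeR adjusted p = 0.853) were not called. NSC (0.34, edgeR adjusted p = 0.035), neoAC CellC and AGES (0.51 ± 0.14, edgeR adjusted p = 0.00247) were called higher than neoAC direct, although their libraries overlapped with it. Acsl3 shares 244 exonic bases on the same strand with Utp14b, whose counts amounted to 4.25% to 45.5% of those of Acsl3.

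Acsl6 (ENSMUSG00000020333, chr11:54303798-54364756, + strand), the brain-enriched synthetase for polyunsaturated fatty acids such as docosahexaenoic acid, spanned 62.6-fold. It was highest in AdAC direct, at 735, 776, 711 and 716 CPM. neoAC direct had 378, 458, 418 and 459.5 CPM and neoAC CellC 234, 345, 374 and 290.3 CPM. All 3 of these groups lay far above AGES (56.1, 41.9, 37.3 and 76.1 CPM), AdAC CellC (28, 31.2, 29.3 and 31.6 CPM) and NSC (9.06, 19.1, 9.33 and 9.43 CPM). Each step in this order was called, although the step from neoAC direct to neoAC CellC was small (edgeR adjusted p = 0.0478).

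Acsbg1 (ENSMUSG00000032281, chr9:54604877-54661870, - strand), the bubblegum synthetase for very long chains, is used as an astrocyte marker. neoAC direct had 973, 1119, 1113 and 841 CPM. AdAC direct (732, 775, 725 and 656 CPM), neoAC CellC (706, 648, 742 and 606 CPM) and NSC (697, 547, 673 and 676 CPM) came next, and the steps between these 3 groups were not called. AGES (194, 140.5, 165 and 261 CPM) and AdAC CellC (65.3, 89.2, 98.5 and 123 CPM) were lower without overlap, so that NSC carried more of this transcript than AGES. Of the other synthetases of long chains, the group means of Acsl1 ranged from 6.44 to 80.6 CPM, those of Acsl4 from 11.9 to 63.3 CPM and those of Acsl5 from 0.266 to 73.5 CPM, while Acsbg2 stayed at or below 0.525 CPM.

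Cpt1a (ENSMUSG00000024900, chr19:3322334-3385733, + strand), which makes acylcarnitine at the outer mitochondrial membrane and limits the rate of β-oxidation, was highest in neoAC direct. The libraries held 392, 369, 379 and 369.9 CPM there. neoAC CellC had 189, 213, 228 and 197 CPM and AdAC direct 173, 175, 167 and 168 CPM. AGES followed with 149.9, 131, 112 and 142 CPM, and AdAC CellC (79.6, 84.8, 87.7 and 83.6 CPM) and NSC (68.5, 94.3, 66.6 and 67.8 CPM) formed the low end, overlapping each other. NSC replicate 2 stood above the other 3 NSC libraries. The muscle form Cpt1b reached 1.18 CPM at most, and the neuronal form Cpt1c kept between 70.1 and 106 CPM.

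Cpt2 (ENSMUSG00000028607, chr4:107903981-107923610, - strand), which turns acylcarnitine back into acyl-CoA inside mitochondria, showed another order. AGES had the highest values, 52, 45.9, 56.7 and 57.8 CPM. NSC had 38.2, 51.1, 38.4 and 36 CPM and neoAC CellC 38.2, 36.1, 39.8 and 37 CPM. AdAC CellC (26.1, 28.4, 26.9 and 27.8 CPM), AdAC direct (27.4, 24.5, 25.3 and 24.6 CPM) and neoAC direct (22.9, 24.2, 24.8 and 23.3 CPM) followed, and the steps between these 3 groups were not called. The mean of Cpt2 was thus lowest in neoAC direct, where that of Cpt1a was highest, and its highest mean was 2.23 times the lowest.

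Acadl (ENSMUSG00000026003, chr1:66830839-66863277, - strand), the long-chain acyl-CoA dehydrogenase of the first oxidation step, reached 291, 273, 293 and 297 CPM in neoAC direct. NSC had 158, 177, 193 and 172 CPM and AGES 158, 148, 109 and 145 CPM. The other groups were lower, with 121, 103, 111 and 116 CPM in AdAC direct, 95.9, 103, 105 and 100.1 CPM in neoAC CellC and 75.1, 80.0, 78.9 and 85.4 CPM in AdAC CellC. Hadha (ENSMUSG00000025745, chr5:30118304-30155162, - strand), the α subunit of the mitochondrial trifunctional protein, varied least of the 10 genes. Its means ran from 275 CPM in neoAC direct over 227 CPM in neoAC CellC, 179 CPM in AGES, 171 CPM in AdAC CellC and 154 CPM in NSC to 149 CPM in AdAC direct. The highest mean was 1.85 times the lowest, and 9.31% of all tested genes had a smaller ratio. The corresponding ratios were 3.61 for Acadl, 5.08 for Cpt1a, 8.38 for Acsl3, 10.8 for Acsbg1 and 12.3 for Fabp5, beside a median of 5.71 over all tested genes. Over the 5 steps from the highest to the lowest group, 33 of the 50 steps of the 10 genes were called, beside 46.7% of such steps over all tested genes.

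Counts were divided by transcript length to compare levels between genes. As CPM per kilobase of the principal transcript (RPKM), Fabp7 was the highest of the 10 in all groups but AdAC direct, with a level of 7334 RPKM in neoAC direct. In AdAC direct, Acsl6 led with 283 RPKM, followed by Acsbg1 with 251 RPKM, and Fabp7 had rank 5 with 101 RPKM. With the length of all annotated exons in place of the principal transcript, Acsbg1 led in AdAC direct with a level of 200.2 RPKM and Acsl6 had rank 3 with 74.1 RPKM. The order of these genes therefore depends on the length chosen, which is 9914 bases for all Acsl6 exons and 2594 for its principal transcript. Cpt2 had ranks from 6 to 9 of 10 over all groups and both lengths, and Cpt1a was above it by the principal transcript in all groups but NSC, where both had 17.2 RPKM. With all exons, Cpt2 was above Cpt1a in NSC (17.1 and 9.72 RPKM), AGES (22.2 and 17.5 RPKM) and AdAC CellC (11.4 and 10.98 RPKM). It was below Cpt1a in the other groups.

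The first question was what culture does to these genes. In adult cells the 3 synthetases and Cpt1a were lower in culture. Acsl6 was 24.5-fold lower in AdAC CellC than in AdAC direct (log2 fold change -4.61 ± 0.23, edgeR adjusted p = 1.68e-14), Acsl3 8.38-fold (-3.07 ± 0.15, edgeR adjusted p = 2.87e-15) and Acsbg1 7.68-fold lower (-2.94 ± 0.17, edgeR adjusted p = 7.71e-14). Cpt1a was 2.04-fold lower and Acadl 1.41-fold lower. Fabp7 went the other way and was 4.72-fold higher in culture (2.24 ± 0.21, edgeR adjusted p = 6.22e-10), as was Fabp3 (2.28 ± 0.41, edgeR adjusted p = 4.63e-05, from 2 to 12 counts in AdAC direct). In all, 3 genes were called higher and 5 lower, which is 8 of 10 beside 78% of all tested genes (38.8% higher and 39.2% lower). Fabp5 and Cpt2 (log2 fold change 0.10 ± 0.09, 95% interval -0.09 to 0.29) were not called.

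In these adult libraries 6 of the 7 oligodendrocyte markers were called lower in culture. Within AdAC CellC, replicate 1 had the lowest sum of these markers, 4351 CPM, the lowest sum of astrocyte markers, 1002 CPM, and the lowest level of 9 of the 10 genes, all but Fabp3. Of the 10 astrocyte markers 9 were called lower, with sums of 16246 to 16965 CPM in AdAC direct and 1002 to 1521 CPM in AdAC CellC. The 7 mural and fibroblast markers summed to 357 to 383 CPM in AdAC direct and 1913 to 2372 CPM in AdAC CellC. All 7 proliferation markers were called higher in culture, with sums of 19.2 to 22.8 and 828 to 1013 CPM in these groups. All 6 ependymal markers were called lower (1249 to 1444 and 239 to 338 CPM in sum). The part of these cell types and of proliferation in the changes of Acsl3, Acsl6 and Acsbg1 was not tested. The call for Hadha (0.20 ± 0.06, edgeR adjusted p = 0.00202) was lost with size factors of DESeq2 (0.12, edgeR adjusted p = 0.057), with no filter on low counts and with a minimum of 10 counts per library.

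In neonatal cells Fabp5 and Fabp7 changed most among the 10 genes. Fabp5 was 12.3-fold lower in neoAC CellC than in neoAC direct (log2 fold change -3.62 ± 0.21, edgeR adjusted p = 2.95e-13) and Fabp7 8.2-fold lower (-3.04 ± 0.21, edgeR adjusted p = 8.06e-12). Acadl fell 2.86-fold (-1.51 ± 0.09) and Cpt1a 1.83-fold (-0.87 ± 0.10). The synthetases moved little, with log2 fold changes of -0.46 ± 0.20 for Acsl6, -0.58 ± 0.16 for Acsbg1 and 0.37 ± 0.14 for Acsl3, and Cpt2 was 1.59-fold higher in culture (edgeR adjusted p = 6.41e-07). Cell type markers moved as well. The 6 ependymal markers, all called higher, summed to 145 to 214 CPM in neoAC direct and 1476 to 1872 CPM in neoAC CellC. The 10 astrocyte markers, 8 of them called lower, summed to 21786 to 24601 and 7627 to 8838 CPM in these groups, and the 7 proliferation markers, all called higher, to 296 to 471 and 757 to 1019.9 CPM. Of the 7 endothelial markers 5 were called lower (92.9 to 365 and 46.7 to 76.3 CPM in sum), and the part of these cells in the changes was not tested. All 10 genes were called, 2 higher and 8 lower, beside 65.7% of all tested genes (34.4% higher and 31.3% lower). Leaving out 1 library each brought the number of called genes to between 7 and 9. The calls for Acsl6 and Acsl3 (edgeR adjusted p = 0.0478 and 0.0277) were each lost without any 1 of 5 of the 8 libraries, with values from -0.47 to -0.35 and from 0.26 to 0.36. Acsl6 also lost its call with library size alone (-0.23, edgeR adjusted p = 0.311), size factors of DESeq2 (-0.45), no filter (-0.52) and a minimum of 10 counts per library (-0.38), and Acsl3 with no filter (0.31, edgeR adjusted p = 0.104). The calls for Acsbg1 and Hadha were lost with library size alone (-0.35 and -0.05), and that for Fabp3 without neoAC CellC replicate 3 (-0.81) or neoAC direct replicate 2 (-0.79).

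The culture difference itself was then compared between the ages in 1 interaction term, the change in adult cells minus that in neonatal cells. Of the 10 genes 9 were called, 5 with a positive and 4 with a negative term, beside 68.6% of all tested genes (35.4% positive and 33.2% negative). The term was positive for the binding proteins, at 5.27 ± 0.30 for Fabp7, 3.71 ± 0.28 for Fabp5 and 3.30 ± 0.54 for Fabp3 on the log2 scale. It was negative for the synthetases, at -4.15 ± 0.30 for Acsl6, -3.43 ± 0.21 for Acsl3 and -2.36 ± 0.23 for Acsbg1. The enzymes of the shuttle and of oxidation differed less, with 1.02 ± 0.12 for Acadl, -0.56 ± 0.13 for Cpt2 and 0.48 ± 0.08 for Hadha. For Cpt1a no difference between the ages was detectable (-0.16 ± 0.14, 95% interval -0.44 to 0.13, edgeR adjusted p = 0.31). Its level was lower in culture at both ages, by 1.03 in adult and 0.87 in neonatal cells. With scaling by library size alone the term was called, at -0.31 (edgeR adjusted p = 0.0449), as it was with a minimum of 10 counts per library, at -0.37 (edgeR adjusted p = 0.0192).

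**Figure D3:**
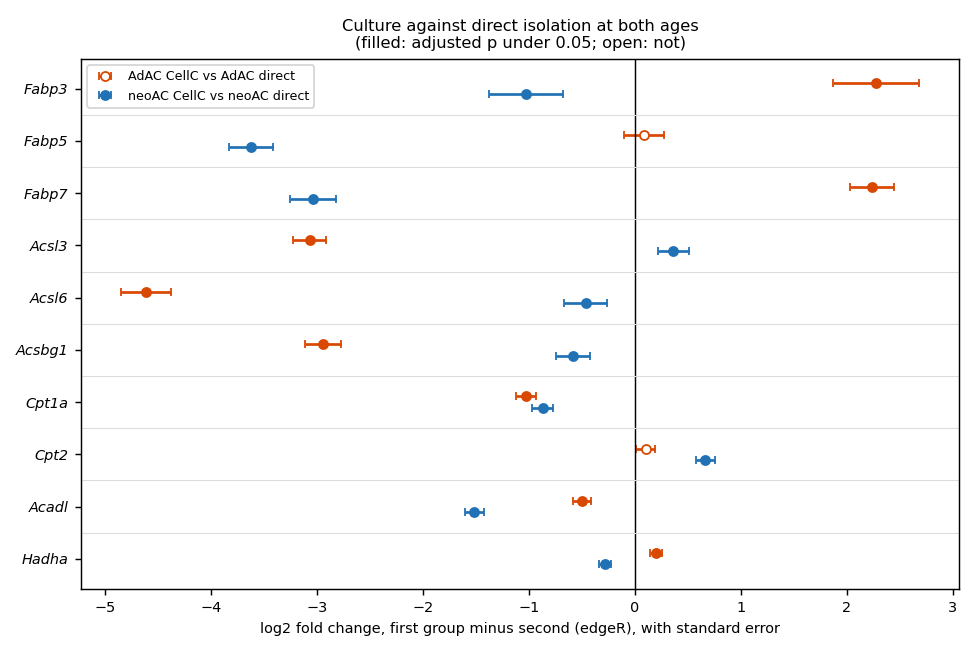
Log2 fold change of each gene in culture against direct isolation (horizontal axis, with standard error) for adult cells in orange and neonatal cells in blue. Filled points have an edgeR adjusted p under 0.05. The binding proteins fall in neonatal cells (Fabp5 -3.62), the synthetases in adult cells (Acsl6 -4.61), and Cpt1a falls in both.

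The second question was how neonatal cells differ from adult cells. After direct isolation Fabp7 was 72.5-fold higher in neonatal cells (log2 fold change 6.18 ± 0.25, edgeR adjusted p = 1.49e-16). Fabp5 was 5.62-fold, Acadl 2.56-fold, Cpt1a 2.21-fold and Hadha 1.85-fold higher in neonatal cells. Acsbg1 was 1.4-fold higher as well (0.49 ± 0.16, edgeR adjusted p = 0.00931). Acsl3 was 4.28-fold lower (-2.10 ± 0.15, edgeR adjusted p = 3.21e-12) and Acsl6 1.72-fold lower. In all 7 genes were called higher and 2 lower, 9 of 10 beside 71.4% of all tested genes (35% higher and 36.4% lower), and Cpt2 was not called (-0.09 ± 0.09, 95% interval -0.29 to 0.10). The oligodendrocyte marker sum moved in the direction of Acsl3 and Acsl6, with 324 to 398 CPM in neonatal and 26627 to 29513 CPM in adult cells. All 6 ependymal markers were also called lower in neonatal cells (145 to 214 and 1249 to 1444 CPM in sum). All 7 proliferation markers were called higher (296 to 471 and 19.2 to 22.8 CPM in sum). Of the 10 astrocyte markers 5 were called higher and 1 lower. The part of these cell types and of proliferation in the differences was not tested.

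In culture the direction was the opposite for Acsl6, Acsl3 and Fabp5. Acsl6 was 10.4-fold higher in neoAC CellC than in AdAC CellC (log2 fold change 3.37 ± 0.22, edgeR adjusted p = 6.50e-12), and Acsl3 2.52-fold higher, while Fabp5 was 2.33-fold lower (-1.22 ± 0.19, edgeR adjusted p = 6.53e-06). Acsbg1 was 7.18-fold and Fabp7 1.88-fold higher in neonatal cells, the direction seen after direct isolation. Cpt1a (1.30 ± 0.10), Cpt2 (0.47 ± 0.09), Hadha (0.41 ± 0.06) and Acadl (0.34 ± 0.09) were all higher in neonatal culture. In culture 8 genes were called higher and 1 lower, 9 of 10 beside 63.8% of all tested genes (28.5% higher and 35.2% lower). Fabp3 was not called (-0.65 ± 0.35, 95% interval -1.38 to 0.09, edgeR adjusted p = 0.114). Cell type markers differed between these cultures as well. All 10 astrocyte markers were called higher in neoAC CellC, with sums of 7627 to 8838 CPM against 1002 to 1521 CPM in AdAC CellC. All 7 oligodendrocyte markers were called lower, with sums of 252 to 339 CPM against 4351 to 11123 CPM. The part of these cell types in the differences was not tested.

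**Figure D4:**
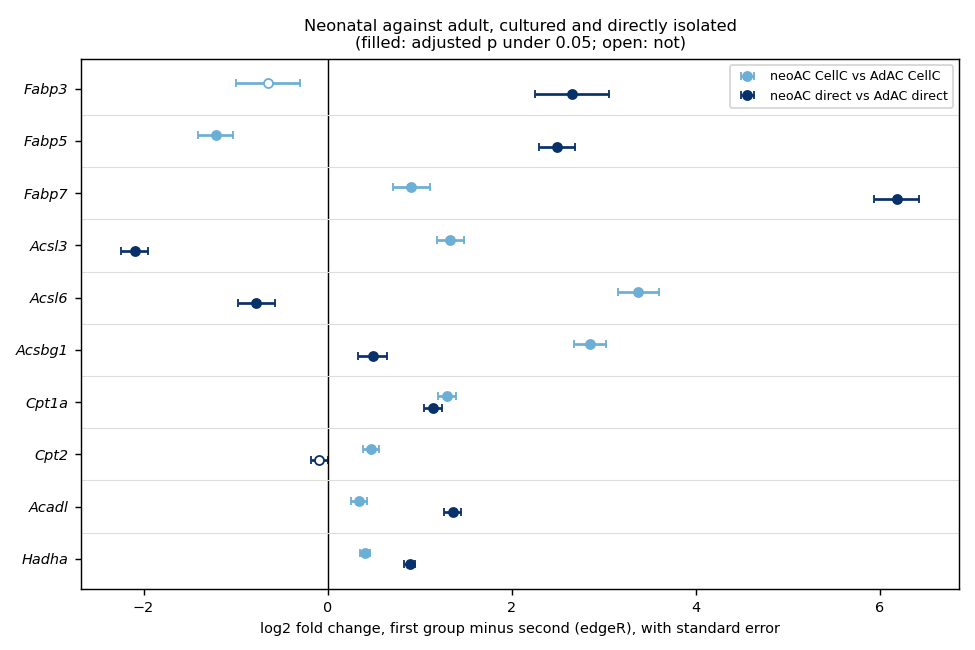
Log2 fold change of each gene in neonatal against adult cells (horizontal axis, with standard error), cultured in light blue and directly isolated in dark blue. Filled points have an edgeR adjusted p under 0.05. Acsl3 is lower in neonatal cells after direct isolation (-2.10) and higher in culture (1.33), and Fabp5 shows the reverse (2.49 and -1.22).

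The third question was where stem cell derived astrocytes stand. AGES had lower Fabp5 and Fabp7 and higher Cpt1a and Cpt2 than NSC. BMP4, the absence of FGF and EGF and the coating change together between these groups, so their parts cannot be told apart. Fabp5 was 2.94-fold lower in AGES than in NSC (log2 fold change -1.56 ± 0.19, edgeR adjusted p = 1.34e-07), Fabp7 2.19-fold lower (-1.13 ± 0.20, edgeR adjusted p = 2.35e-05) and Acsbg1 3.41-fold lower (-1.77 ± 0.17, edgeR adjusted p = 6.82e-10). Acsl6 was 4.49-fold, Cpt1a 1.8-fold and Cpt2 1.3-fold higher. With Hadha higher (0.22 ± 0.06) and Acadl lower (-0.32 ± 0.09), 4 genes were called in each direction, 8 of 10 beside 65.7% of all tested genes (31.7% higher and 34% lower). Acsl3 was not called (0.18 ± 0.14, 95% interval -0.12 to 0.48). The 7 proliferation markers summed to 3364 to 3498 CPM in NSC and 26.4 to 30.8 CPM in AGES, and their part in these changes was not tested. The call for Acadl was lost when AGES and NSC were fitted alone (-0.23, edgeR adjusted p = 0.0928).

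Against AdAC CellC, AGES had more of 6 genes, namely Acsl3 (1.48 ± 0.15), Acsbg1 (1.02 ± 0.16), Cpt2 (0.96 ± 0.09), Acsl6 (0.81 ± 0.21), Acadl (0.81 ± 0.09) and Cpt1a (0.67 ± 0.10, all log2 fold changes). Fabp3 and Fabp5 were called lower, which makes 8 of 10 beside 76.2% of all tested genes (31% higher and 45.2% lower). Fabp7 and Hadha (0.07 ± 0.06, 95% interval -0.05 to 0.19) were not called. Hadha was called higher in AGES with no filter (0.19, edgeR adjusted p = 0.0253), when the groups were fitted alone (0.17, edgeR adjusted p = 0.00687) and in the Wald test of DESeq2 (0.11, adjusted p = 0.0235), and lower with library size alone (-0.15, edgeR adjusted p = 0.0188). The call for Fabp5 (log2 fold change -0.73 ± 0.19, edgeR adjusted p = 0.00126) was lost once the counts of its near-identical copies were added (-0.39 ± 0.19, edgeR adjusted p = 0.066), and when the 2 groups were fitted alone (-0.63, edgeR adjusted p = 0.0546). The median of all tested genes in this comparison was -0.23 on the same scale. Of the 10 astrocyte markers 8 were called higher and 2 lower in AGES. All 7 oligodendrocyte markers and all 7 mural and fibroblast markers were called lower in AGES, and the part of these cell types was not tested.

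Against neoAC CellC, AGES had less of most of these genes. Acsl6 was 5.89-fold lower (log2 fold change -2.56 ± 0.21, edgeR adjusted p = 1.59e-10), Acsbg1 3.55-fold lower (-1.83 ± 0.17, edgeR adjusted p = 3.34e-10) and Fabp7 1.95-fold lower. Cpt1a (-0.63 ± 0.10) and Hadha (-0.34 ± 0.06) were lower, whereas Cpt2 (0.49 ± 0.09) and Acadl (0.47 ± 0.09) were higher. With Fabp3 lower and Fabp5 higher, 3 genes were called higher and 6 lower, 9 of 10 beside 74.6% of all tested genes (34.1% higher and 40.5% lower). The difference in Fabp5 (log2 fold change 0.48 ± 0.19, edgeR adjusted p = 0.0256) was 0.16 (edgeR adjusted p = 0.332) without AGES replicate 4, 0.43 without neoAC CellC replicate 2 and 0.47 without neoAC CellC replicate 3, none of them called, and 0.82 ± 0.19 (edgeR adjusted p = 0.000481) with the copies added. Its call was also lost with size factors of DESeq2 (0.42), a minimum of 10 counts per library (0.33) and a fit of the 2 groups alone (0.44). Scaling by library size alone ended the calls for Fabp5 (0.18), Cpt2 (0.19) and Acadl (0.17). Of the 10 astrocyte markers 3 were called higher and 4 lower in AGES than in neoAC CellC. All 6 ependymal markers and all 7 mural and fibroblast markers were called lower in AGES, and the part of these cell types was not tested. The AGES comparisons share the AGES libraries and are therefore given side by side.

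The surrounding pathway was read from 117 genes in 10 lists, of which 106 were tested. In adult culture 18 were called higher and 69 lower, together 82.1% of them beside 78% of all tested genes. In neonatal culture 26 were called higher and 55 lower (76.4% beside 65.7%). In the same order of higher and lower, the counts were 50 and 29 for AGES against NSC (74.5% beside 65.7%), 42 and 45 against AdAC CellC (82.1% beside 76.2%) and 34 and 51 against neoAC CellC (80.2% beside 74.6%). They were 60 and 25 for neonatal against adult culture (80.2% beside 63.8%) and 49 and 36 after direct isolation (80.2% beside 71.4%). The median log2 fold change of the tested list genes was -0.51 in adult culture, -0.38 in neonatal culture and 0.41 for neonatal against adult culture, beside 0, 0.04 and -0.08 for all tested genes.

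Mitochondrial β-oxidation held 18 further tested enzymes. The median of these for neoAC CellC minus AdAC CellC was 0.61 on the log2 scale. Beside 28.5% of all tested genes, 15 of the 18 were called higher in neoAC CellC. Among them were Acadm (1.28 ± 0.08), the medium-chain dehydrogenase, Hadhb (1.04 ± 0.09), the β subunit that forms the trifunctional protein with Hadha, and Etfdh (0.63 ± 0.07), which passes the electrons on to the respiratory chain. After direct isolation 12 were called higher and 2 lower in neonatal cells, beside 35% and 36.4% of all tested genes. The subunits Hadha and Hadhb did not move together in culture. In adult cells Hadhb was lower in culture (-0.79 ± 0.09, edgeR adjusted p = 2.94e-08) while Hadha was slightly higher, and in neonatal cells Hadhb was higher (0.33 ± 0.09, edgeR adjusted p = 0.00332) while Hadha was lower. The interaction term was -1.12 ± 0.13 for Hadhb and 0.48 ± 0.08 for Hadha.

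In the carnitine shuttle the translocase Slc25a20, which stands between Cpt1a and Cpt2, was lower in neonatal culture (-0.72 ± 0.07) and higher in adult culture (0.25 ± 0.07). Of the 8 genes listed with the shuttle besides Cpt1a and Cpt2, regulators of it among them, 6 were called higher and 1 lower in AGES than in NSC. The shares of all tested genes were 31.7% and 34%. Among 7 ketone body genes 6 were called higher and 1 lower in neonatal than adult culture (28.5% and 35.2% of all tested genes). Bdh1, which interconverts the ketone bodies, was lower in AGES than in neoAC CellC (-4.06 ± 0.18, edgeR adjusted p = 1.70e-16).

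Of 13 genes of fatty acid synthesis and desaturation, 12 were called lower and 1 higher in neonatal culture. The shares of all tested genes were 31.3% and 34.4%, and the median of the 13 was -0.93 on the log2 scale. Fatty acid synthase, Fasn, fell from 1093 ± 169 CPM to 311 ± 41 CPM, and acetyl-CoA carboxylase, Acaca, by 0.93 on the log2 scale. The exception was Elovl7, an elongase, at 2.40 ± 0.22. In uptake, the transporter Slc27a1 fell from 735 ± 129 CPM to 117 ± 16.8 CPM in neonatal culture and from 979 ± 87.4 CPM to 87.2 ± 9.17 CPM in adult culture. The acyl-CoA binding protein Dbi was highest in AGES, at 3858 ± 121 CPM, with 394 ± 27.6 CPM in AdAC CellC. AGES also had the highest level of the desaturase Scd1, 2531 ± 393 CPM. The cultured brain cells had 405 ± 39.7 CPM (neoAC CellC) and 335 ± 24.9 CPM (AdAC CellC).

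**Figure D5:**
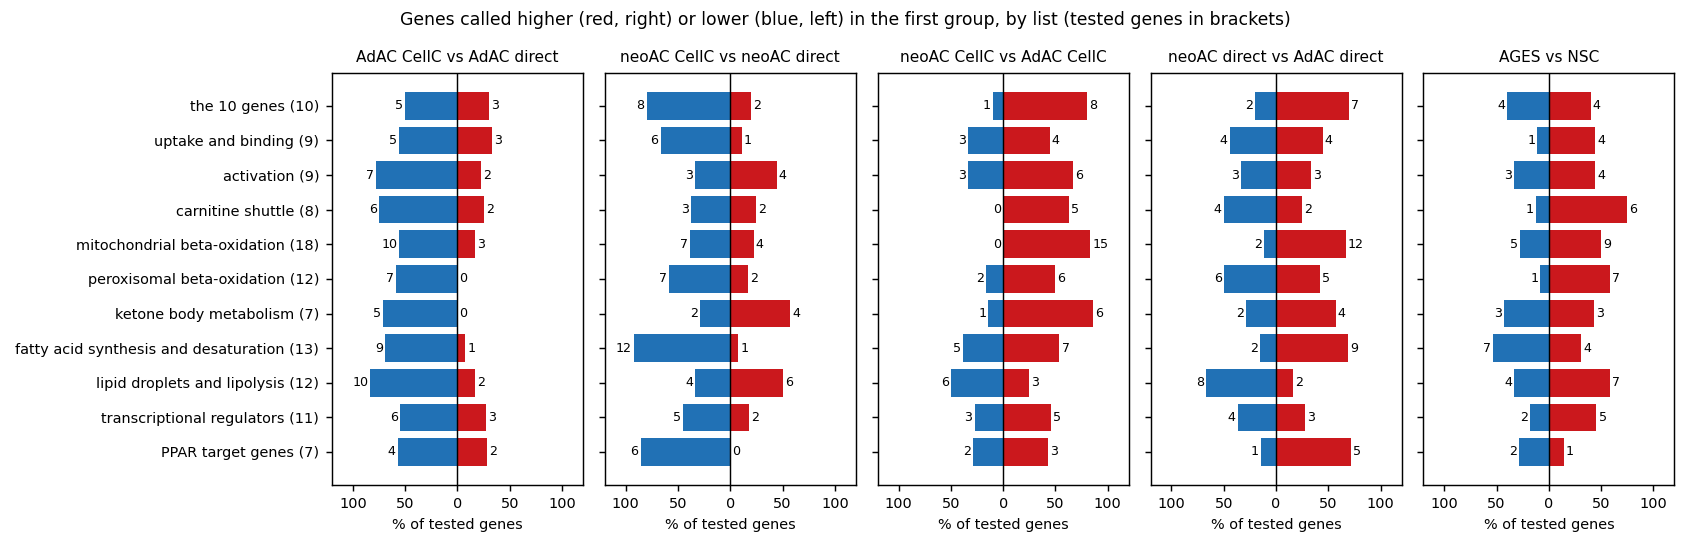
Share of the tested genes of each list (horizontal axis, percent) called higher (red, right) or lower (blue, left) in the first group of 5 comparisons, with the numbers of genes beside the bars. In neonatal culture 12 of 13 fatty acid synthesis genes were lower (31.3% of all tested genes). In neonatal against adult culture 15 of 18 mitochondrial β-oxidation genes were higher (28.5% of all tested genes).

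The genes whose pattern over the 6 group means was most like that of a member, by the root mean square difference of centred log2 CPM, are given as a description. For Fabp5 they were Lss (0.32) and Mvd (0.38), enzymes of cholesterol synthesis. For Hadha they were Etfdh (0.11) and the transporter Slc30a9 (0.12), and for Cpt1a Agpat3 (0.16), an acyltransferase of phospholipid synthesis, and the transcription factor Nr2f1 (0.22). Acsl6 was closest to Gpr37l1 (0.41), an astrocyte receptor, and Scg3 (0.42), Acsbg1 to Wnt7a (0.34) and Tet1 (0.36), and Acsl3 to Cables1 (0.13) and Tprkb (0.33). Fabp7 had no close neighbour, with Marcks at 0.71 and Grip1 at 0.83, and Fabp3 had Ptp4a3 at 0.55 and Flot2 at 0.59. Cpt2 was closest to Fzd4 (0.06) and Fam131a (0.07), and Acadl to Wnk3 (0.14) and Zfp687 (0.14). These distances rest on 6 groups. Among the 10 genes themselves the smallest distances were Acadl with Hadha (0.52), Cpt2 with Hadha (0.57) and Cpt1a with Hadha (0.57). The largest was Fabp7 with Acsl6 (2.90). The distance is not scaled for how much a gene varies, so it is small between genes with flat patterns. Cpt2 and Hadha varied by only 0.41 and 0.31 about their own means (root mean square). Their patterns were not alike, since neoAC direct had the lowest mean of Cpt2 and the highest of Hadha.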

How the data were processed

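Total RNA from 24 samples was made into stranded mRNA libraries and sequenced in pairs. Reads were demultiplexed with bcl2fastq 2.20 and aligned with STAR 2.7.3a to GRCm38 per the labels and the methods of the study, and the authors deposited raw counts per gene from featureCounts over exons of Gencode vM12. Groups were taken from the sample titles. Symbols, positions and exon lengths came from Gencode vM21 (99.3% of the 49671 identifiers matched), and promoters from RefSeq on GRCm38.p6. Counts were filtered with filterByExpr, scaled by TMM and fitted with edgeR 4.0.16 (limma 3.58.1, R 4.3.3) in 1 model of 6 group means, with robust quasi-likelihood dispersion and two-sided tests at an adjusted p under 0.05 over 19691 genes. Alternatives were the size factors of DESeq2, library size alone, no filter, at least 10 counts in every library, the Wald test of DESeq2 1.42.0, a fit of the compared groups alone, a replicate block, and leaving out each library. The script was tested on simulated data.

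The 10 genes and the pathway and marker lists were chosen with earlier results of these data known. In the text stand all 10 genes, their paralogs, for each gene the 2 most similar genes, and the pathway genes with the 3 highest and 3 lowest called fold changes of each comparison, if the libraries did not overlap and the mean reached 10 CPM in either group. Cpt1b, Cpt1c, Acadm, Hadhb, Slc25a20, Fasn, Acaca, Ppara, Gm6166 and Utp14b were named in addition, after their values were seen. A pathway gene that the rule on fold changes names is not reported here. Near-identical copies were genes whose transcripts matched the principal transcript of a member at 95% identity over at least 100 bases. Replicates are separate isolations or cultures. No pair of libraries within a group was alike within sampling noise. The 95% intervals of fold changes come from the edgeR fit and include the spread between libraries, while the floors of 3 counts per library cover counting error alone.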

Additional observations from a re-analysis of the deposited data

Results flagged for a closer look

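The change with culture differed between adult and neonatal cells for 9 of the 10 genes (interaction term in edgeR, log2 scale, adult minus neonatal). It was 5.27 for Fabp7, 3.71 for Fabp5, 3.30 for Fabp3, 1.02 for Acadl and 0.48 for Hadha. The term was -4.15 for Acsl6, -3.43 for Acsl3, -2.36 for Acsbg1 and -0.56 for Cpt2. Fabp3 and Fabp7 were called higher in adult and lower in neonatal culture, although the neonatal call for Fabp3 was lost without either of 2 libraries. Hadha took the same directions, but its adult call was lost in 3 alternatives and its neonatal call with library size alone. Acsl3 was lower in adult culture and higher in neonatal culture, where its call was lost with no filter and without any 1 of 5 libraries.

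A total of 6 values lay apart from the other 3 libraries of their group by more than Dixon's 95% limit for the gap relative to the range, out of 58 groups of 4 libraries examined, or 10.3%, where chance flags about 1 in 20. All 6 were in NSC. NSC replicate 2 was the highest of its group for Fabp5 (445 CPM), Acsl6 (19.1 CPM), Cpt1a (94.3 CPM) and Cpt2 (51.1 CPM) and the lowest for Acsbg1 (547 CPM), and NSC replicate 3 was the highest for Fabp7 (1039 CPM). Leaving out any 1 NSC library changed no call of these genes between AGES and NSC.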

How the results depend on the processing

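The counts of called genes stayed within 1.5 times their value under every alternative run. Of 1266 recomputed fold changes of the 10 genes, 1215 kept direction and side of the threshold, 34 lost and 5 gained a call, and 12 changed sign, and the cause of the changes was not tested. With library size alone, AGES minus AdAC CellC was -0.15 for Hadha (edgeR adjusted p = 0.0188) and AGES minus neoAC CellC -0.16 for Acsl3. With at least 10 counts in every library the latter was -0.015, and AdAC CellC minus AdAC direct was -0.053 for Fabp5 and -0.037 for Cpt2. Without a filter the Fabp5 value was -0.011, and AGES minus AdAC CellC for Fabp7 was 0.063, or 0.045 when the compared groups were fitted alone. These results had no call to lose. Leaving out 1 library each, ranges that crossed 0 were -0.00099 to 0.29 for Acsl3 in AGES against NSC, -0.034 to 0.26 for Acsl3 in AGES against neoAC CellC, and -0.20 to 0.15 for Fabp7 in AGES against AdAC CellC.

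The replicate numbers give no pairing. Of 60 pairs of equally numbered libraries of different groups, correlations of the deviations ran from -0.15 to 0.11 and 1 was above 0.1. With the replicate number as a block, 10 of the genes were called in neonatal culture and 8 in adult culture, and no call of the 10 genes changed. Scaling by library size alone moved the share of higher calls over all genes from 52.3% to 65.9% in neonatal culture, and from 45.7% to 31.5% in AGES against neoAC CellC. Fabp3 could not be given a value in AGES against NSC, where all libraries were at 0, or under the minimum of 10 counts.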

Other observations

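The lipid droplet coat gene Plin2, which covers droplets in most cells, was lower in the stem cell groups than in the brain groups. It had 172 ± 16.4 CPM in AdAC CellC, 48.7 ± 2.91 CPM in neoAC CellC, 34.7 ± 4.17 CPM in neoAC direct and 24.7 ± 0.736 CPM in AdAC direct, against 0.415 ± 0.0563 CPM in AGES and 0.104 ± 0.0553 CPM in NSC. Plin2 rose in adult culture by 2.80 ± 0.09 on the log2 scale (edgeR adjusted p = 1.39e-18) and in neonatal culture by 0.49 ± 0.09. The synthetase Acsl5 took the same direction in both cultures, with 73.5 ± 5.56 CPM in AdAC CellC and 0.266 ± 0.12 CPM in AGES. Plin4 was highest in AdAC direct, at 99.7 ± 51.5 CPM, and had a mean of 13.3 CPM in AdAC CellC. It had 5.52 ± 1.76 CPM in AGES, 2.07 ± 0.317 CPM in neoAC CellC and 0.681 ± 0.13 CPM in neoAC direct.

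Of the 7 tested genes that PPAR receptors are known to induce, 6 were called lower in neonatal culture, and 4 lower and 2 higher in adult culture, beside 65.7% and 78% of all tested genes called in either direction. Angptl4, a secreted inhibitor of lipoprotein lipase, had 148 ± 11.8 CPM in neoAC direct and 1.37 ± 0.295 CPM in neoAC CellC (log2 fold change -6.76 ± 0.18, edgeR adjusted p = 1.57e-19), while in adult cells it did not pass the test (-0.23 ± 0.14, edgeR adjusted p = 0.133), and the interaction term was 6.53 ± 0.22. Pdk4, the kinase that turns pyruvate oxidation down, was lower in culture at both ages (-1.91 ± 0.10 in neonatal and -1.66 ± 0.10 in adult cells) and stood at 0.0475 CPM in AGES and 0.073 CPM in NSC. Ucp3 was present at 34.6 ± 2.34 CPM in AdAC direct, at 2.18 ± 0.447 CPM in neoAC direct and at no more than 0.119 CPM on average elsewhere. Ppara itself fell by 2.88 in adult and by 2.02 in neonatal culture on the log2 scale.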
